A study of Mus musculus with 6 samples.

Results

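The genes described here are 10 mouse genes of antioxidant and ferroptosis defence (Sod1, Sod2, Cat, Gpx4, Prdx3, Gclc, Gclm, Nqo1, Hmox1 and Slc7a11). They were taken as the rows of a gene count table whose Ensembl identifiers carry these symbols in GENCODE M21, which gave all 10 out of 54532 rows. RNA was sequenced from quadriceps of pups aged 10 days and fed chow, in 3 Myf5Cre-Pcyt2 flox/flox muscles and 3 Pcyt2 flox/flox control muscles. Both groups carry the floxed Pcyt2 alleles, and the Myf5Cre-Pcyt2 pups carry in addition a Cre recombinase under the control of Myf5, a gene of early muscle precursors. Since no label gives the controls a Cre allele, the effect of Cre itself cannot be told apart from that of losing Pcyt2. No label tells whether litters were separate, and the p-values measure the spread between these 6 samples.

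Respiring muscle makes superoxide, chiefly in its mitochondria. Superoxide dismutases turn it into hydrogen peroxide, which catalase, peroxiredoxins and glutathione peroxidases then remove, drawing on the thiols thioredoxin and glutathione. Ferroptosis is a death of cells by iron-dependent peroxidation of phospholipids, among them polyunsaturated phosphatidylethanolamines, and the glutathione peroxidase Gpx4 counters it by reducing lipid hydroperoxides within membranes. Pcyt2, the gene floxed here, encodes the enzyme that makes CDP-ethanolamine for the synthesis of phosphatidylethanolamine. Many genes of these systems are induced through the transcription factor NRF2 (gene Nfe2l2), which binds the antioxidant response element.

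Of the 10 genes, 3 differed between the groups. The mitochondrial superoxide dismutase gene Sod2 and the mitochondrial peroxiredoxin gene Prdx3 fell, to 68.1% and 68.5% of the control level, and the heme oxygenase gene Hmox1 rose, to 146% of it. The cytosolic superoxide dismutase gene Sod1, the glutathione synthesis genes Gclc and Gclm, and the ferroptosis genes Gpx4 and Slc7a11 did not pass the test, and neither did Cat and Nqo1. All 10 passed the filter on low counts. Across all genes, 2739 of 14715 tested genes (18.6%) passed, with 9.02% higher and 9.59% lower in Myf5Cre-Pcyt2 muscle, and no test sets the share of 3 in 10 apart from that background. The ranges of the groups did not overlap for 5 of the 10 genes, against 39.0% of all tested genes. Here and below, levels are counts scaled to library depth with TMM factors (CPM), fold changes are Myf5Cre-Pcyt2 over control on the log2 scale, and a gene passed at an adjusted p under 0.05 in edgeR's quasi-likelihood test. Adjustment was by Benjamini-Hochberg over all tested genes. Where libraries are named without which a gene misses the threshold, the range of adjusted p covers all alternative settings. Those include other scalings and filters and a block for the replicate number, and failures under them are not always named.

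Library totals lay between 18271765 and 20446920 counts in Myf5Cre-Pcyt2 muscle and between 17775898 and 20216013 in control muscle. The floxed gene Pcyt2 had 280, 328 and 272 counts in Myf5Cre-Pcyt2 muscle, against 353, 277 and 277 in control muscle. The difference of −0.28 on the log2 scale (SE 0.11) missed the threshold (adjusted p = 0.0944). The labels do not give the deleted part of Pcyt2, and a count over the whole gene does not show whether an exon is missing. The 7 defining genes of muscle fibres were all abundant, with summed levels of 86530 to 108400 CPM in Myf5Cre-Pcyt2 muscle and 129000 to 183400 CPM in control muscle. Of these 7, 3 fell (Ckm, Mb and Tnnt3) and 0 rose (edgeR), and 0 rose at an unadjusted p under 0.05. Myh4 and Acta1, which made most of each sum, were lower without passing (edgeR adjusted p = 0.0973 and 0.0699). Ttn lay at 0.20 and Des at −0.13 on the log2 scale, both with overlapping groups. In bulk muscle, fewer cells of a type and less RNA per cell cannot be told apart. Scaling matters for small changes here, because scaling by library size alone shifted the all-gene median by 0.21 log2 units. With that scaling 86.6% of the genes that passed were higher in Myf5Cre-Pcyt2 muscle, against 48.5% with TMM.

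**Figure D1:**
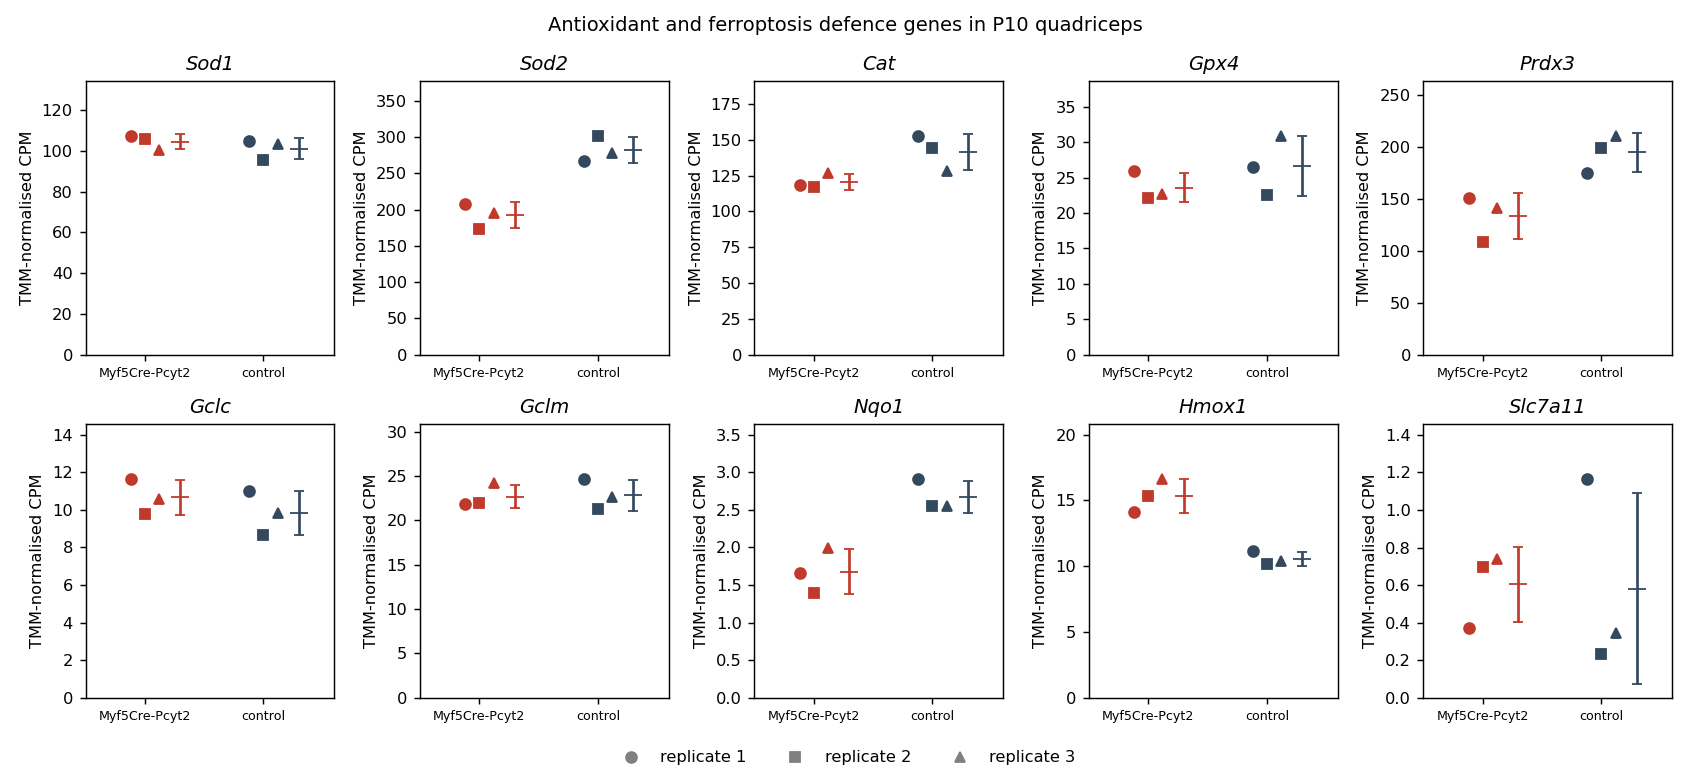
TMM-normalised CPM of the 10 genes (vertical axes, linear from 0) in each library, with Myf5Cre-Pcyt2 left of control; symbols stand for replicates, and the bars give mean ± SD (n = 3 per group). The groups lie apart for Sod2, Cat, Prdx3, Nqo1 and Hmox1, and control replicate 1 stands far above the other control libraries for Slc7a11.

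RefSeq promoter windows on GRCm38.p6, from 250 bases before to 50 bases after a start of the gene in RefSeq, were at hand for 8 of the 10 genes. They were searched on both strands for the core of the antioxidant response element (TGACNNNGC), the half-site of estrogen-related receptors (TCAAGGTCA) and the core of the site of the factor NRF1, the last pair being elements of many genes for mitochondrial proteins. These motifs occurred in 12.4%, 0.42% and 0.97% of all 32851 windows of this length. Among the windows of the 8 genes, the antioxidant response element core was found in Sod1 (1 match) and in Gclm (1 match), and the windows of Sod2, Cat, Gpx4, Prdx3, Nqo1 and Slc7a11 held none of the 3 motifs. The Sod2 and Prdx3 windows are shown because these genes fell together, and the Gclm and Sod1 windows because they hold the element. Capitals mark the motif, and each run is written 5′ to 3′ on the gene's strand. The Sod2 window is chr17:13007589-13007888 (plus strand, 64.3% G and C) and the Prdx3 window is chr19:60874489-60874788 (minus strand, 57.0% G and C). The Sod2 window lies wholly within the gene as GENCODE M21 gives it, which begins at base 13006846. No window at that base was searched. The Gclm window is chr3:122245307-122245606 (plus strand), with the match on the minus strand beginning 134 bases before the start. The Sod1 window is chr16:90220512-90220811 (plus strand), with the match on the minus strand beginning 56 bases before the start.
Sod2 promoter: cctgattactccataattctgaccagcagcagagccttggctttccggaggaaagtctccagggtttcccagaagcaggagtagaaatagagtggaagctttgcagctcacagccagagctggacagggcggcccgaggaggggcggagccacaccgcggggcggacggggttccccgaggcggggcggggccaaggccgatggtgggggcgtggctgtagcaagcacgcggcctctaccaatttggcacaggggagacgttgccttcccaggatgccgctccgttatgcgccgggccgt
Prdx3 promoter: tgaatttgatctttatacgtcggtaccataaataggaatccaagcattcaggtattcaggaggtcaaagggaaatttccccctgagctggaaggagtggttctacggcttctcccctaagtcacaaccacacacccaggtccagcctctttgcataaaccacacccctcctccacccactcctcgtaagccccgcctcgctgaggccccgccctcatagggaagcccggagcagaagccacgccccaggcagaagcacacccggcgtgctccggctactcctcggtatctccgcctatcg
Gclm promoter: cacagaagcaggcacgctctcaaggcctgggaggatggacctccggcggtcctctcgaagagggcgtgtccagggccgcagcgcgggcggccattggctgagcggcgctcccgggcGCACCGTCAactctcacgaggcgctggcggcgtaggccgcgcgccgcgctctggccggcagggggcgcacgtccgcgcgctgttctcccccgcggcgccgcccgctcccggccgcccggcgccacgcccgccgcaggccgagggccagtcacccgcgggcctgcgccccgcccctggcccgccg
Sod1 promoter: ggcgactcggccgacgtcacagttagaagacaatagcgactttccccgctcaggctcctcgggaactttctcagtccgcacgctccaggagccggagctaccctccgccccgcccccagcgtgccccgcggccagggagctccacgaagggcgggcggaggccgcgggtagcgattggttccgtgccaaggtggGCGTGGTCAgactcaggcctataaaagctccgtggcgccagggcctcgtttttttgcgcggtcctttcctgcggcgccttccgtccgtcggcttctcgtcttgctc
A match is a string of letters and not a bound site, and the windows are short, while response elements of several of these genes are known to lie farther from the start.

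Superoxide is handled by 2 members in different compartments. Sod2, the manganese enzyme of the mitochondrial matrix (ENSMUSG00000006818, GRCm38 chr17:13006846-13040063), had 208, 173 and 196 CPM in Myf5Cre-Pcyt2 muscle, against 267, 302 and 279 CPM in control muscle. All 3 Myf5Cre-Pcyt2 libraries lay below all 3 control libraries, and Myf5Cre-Pcyt2 replicate 2 was the lowest. The means were 192 ± 17.7 CPM in Myf5Cre-Pcyt2 muscle and 282 ± 17.84 CPM in control muscle (SD, n = 3 each), which is −0.55 in log2 units (SE 0.10, adjusted p = 0.00615). Its call was kept under all 13 alternative settings, with adjusted p from 2.42e-06 to 0.034. Sod1, the copper and zinc enzyme of the cytosol (chr16:90220754-90226329), had 105 ± 3.71 CPM in Myf5Cre-Pcyt2 muscle and 101 ± 4.98 CPM in control muscle, with overlapping groups. Its log2 fold change was 0.05 with a 95% interval of −0.13 to 0.23 (adjusted p = 0.711).

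Hydrogen peroxide is removed by Prdx3 and Cat, and lipid hydroperoxides by Gpx4. Prdx3, the thioredoxin-dependent peroxidase of mitochondria (ENSMUSG00000024997, chr19:60864051-60874556), had 151, 108 and 141 CPM in Myf5Cre-Pcyt2 muscle, against 174, 199 and 211 CPM in control muscle. The groups did not overlap, and the spread within each was wider than for Sod2, with Myf5Cre-Pcyt2 replicate 2 the lowest. The log2 fold change was −0.55 (SE 0.13, adjusted p = 0.0168). The call was lost on leaving out Myf5Cre-Pcyt2 replicate 2 (−0.42, adjusted p = 0.0606) and under scaling by library size alone (−0.34, adjusted p = 0.0559), over a range of 9.19e-06 to 0.0606. Without that replicate, 1 of the 10 genes was lower and 1 was higher.
Cat, the heme-containing catalase of peroxisomes (chr2:103453849-103485160), had 118, 117 and 127 CPM in Myf5Cre-Pcyt2 muscle, against 153, 144 and 128 CPM in control muscle. The groups did not overlap, but Myf5Cre-Pcyt2 replicate 3 and control replicate 3 lay side by side. The log2 fold change of −0.23 (SE 0.09) did not pass (adjusted p = 0.104), although it did without control replicate 3 (−0.30, adjusted p = 0.0493, range over alternatives 0.0493 to 0.896). Gpx4, the selenium-containing lipid hydroperoxidase (ENSMUSG00000075706, chr10:80047166-80056439), ranged from 22.2 to 25.9 CPM in Myf5Cre-Pcyt2 muscle and from 22.5 to 30.9 CPM in control muscle. Its groups overlapped. Its log2 fold change was −0.18 (95% interval −0.44 to 0.09, adjusted p = 0.318), and scaling by library size alone put it at 0.02. A pseudogene row, Gpx4-ps2, held 116 counts over all 6 libraries. No source used here says how reads that match several copies were counted.

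**Figure D2:**
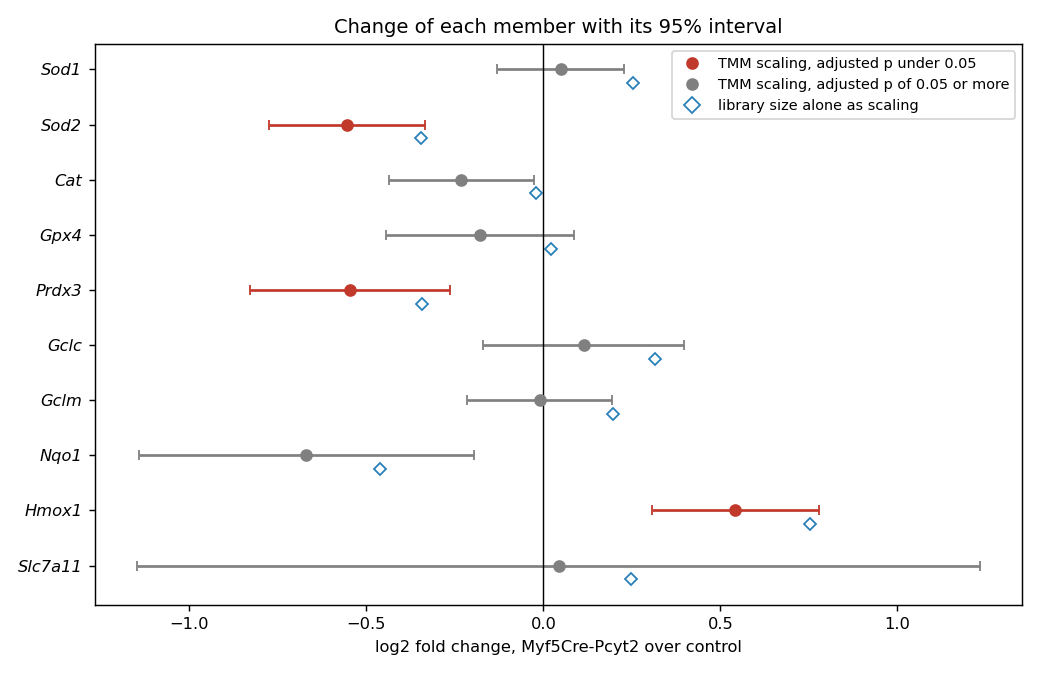
Log2 fold change of each gene, Myf5Cre-Pcyt2 over control (horizontal axis), with its 95% interval from edgeR's quasi-likelihood fit on 3 libraries per group; red marks an adjusted p under 0.05, and open diamonds give the value with library size alone as the scaling. Sod2 and Prdx3 lie near −0.55 and Hmox1 at 0.54, and the interval of Slc7a11 reaches from −1.15 to 1.23.

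Glutathione is made from cysteine, glutamate and glycine, and 3 members act in its supply. Gclc, the catalytic subunit of the rate-limiting glutamate-cysteine ligase (chr9:77754535-77794485), averaged 10.7 ± 0.932 CPM in Myf5Cre-Pcyt2 muscle and 9.83 ± 1.18 CPM in control muscle. Gclm, the modifier subunit of the same enzyme (chr3:122245557-122270732), averaged 22.7 ± 1.29 CPM in Myf5Cre-Pcyt2 muscle and 22.8 ± 1.73 CPM in control muscle (SD, n = 3 each). Both had overlapping groups, with log2 fold changes of 0.11 (95% interval −0.17 to 0.40, adjusted p = 0.567) and −0.01 (95% interval −0.22 to 0.19, adjusted p = 0.95), and Gclm was at 0.20 with library size alone as the scaling. The exons of Gclm share 296 bases with the antisense transcript Gm17494, which held 22 counts in all libraries together.
Slc7a11, the cystine importer that feeds glutathione synthesis (chr3:49892526-50443614), had few counts. It had 7, 16 and 16 counts in Myf5Cre-Pcyt2 muscle, against 22, 4 and 6 counts in control muscle, or 0.374, 0.699 and 0.739 CPM in Myf5Cre-Pcyt2 muscle, against 1.17, 0.232 and 0.348 CPM in control muscle. Control replicate 1 held the highest level of all 6 libraries, and the other control libraries the lowest. The log2 fold change was 0.04 with a 95% interval of −1.15 to 1.23 (adjusted p = 0.964), and the libraries of the control group differed widely. Without control replicate 1 it was 1.06 (adjusted p = 0.171), and without control replicate 2 it was −0.32 (adjusted p = 0.727).

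The markers of adipocytes were also highest in control replicate 1. Summed over 6 adipocyte markers, levels were 439, 513 and 500 CPM in Myf5Cre-Pcyt2 muscle, against 916, 323 and 549 CPM in control muscle. Most of each sum was Fabp4, with 368, 419 and 395 CPM in Myf5Cre-Pcyt2 muscle, against 581, 289 and 451 CPM in control muscle. The adiponectin gene Adipoq had 15.9, 18.2 and 20.8 CPM in Myf5Cre-Pcyt2 muscle, against 50.2, 5.51 and 17.9 CPM in control muscle. The order of the control libraries in these markers was also their order for Slc7a11. Within Myf5Cre-Pcyt2 muscle the summed markers and Fabp4 were highest in replicate 2, but Slc7a11 and Adipoq in replicate 3. Of the 6 markers, 0 passed in either direction with edgeR, and 1 (Lep) was lower at an unadjusted p under 0.05. The part of adipocyte RNA in the level of Slc7a11 was not tested. Me1, the cytosolic malic enzyme that supplies NADPH, was chosen after its values were seen. It had 23.3, 13.8 and 34.2 CPM in Myf5Cre-Pcyt2 muscle, against 62.5, 36.0 and 41.0 CPM in control muscle, and was likewise highest in control replicate 1. Its log2 fold change of −0.97 (SE 0.28) passed (adjusted p = 0.0372), but not without Myf5Cre-Pcyt2 replicate 1 (0.0853), Myf5Cre-Pcyt2 replicate 2 (0.108), control replicate 1 (0.0937) or control replicate 3 (0.0508), over a range of 5.07e-16 to 0.108.

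**Figure D3:**
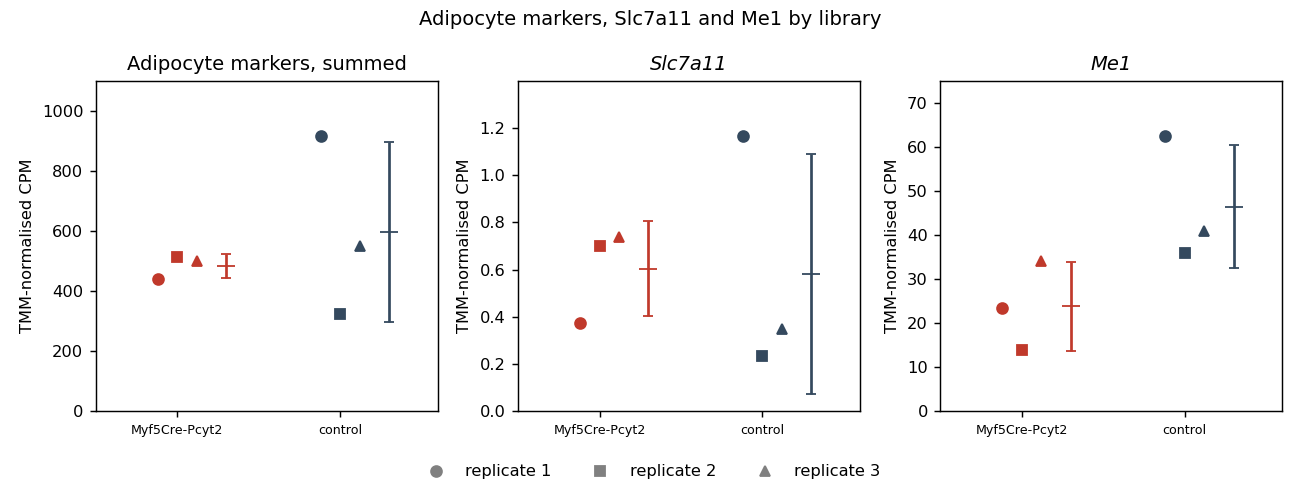
TMM-normalised CPM per library (vertical axes, linear from 0) of 6 adipocyte markers summed, Slc7a11 and Me1, with Myf5Cre-Pcyt2 left of control, symbols for replicates and mean ± SD (n = 3 per group). Control replicate 1 is the highest library in each panel, at 916, 1.17 and 62.5 CPM.

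Nqo1 and Hmox1 are inducible enzymes that serve as standard readouts of NRF2 activity. Nqo1, a quinone reductase (ENSMUSG00000003849, chr8:107388225-107403206), was low, with 31, 32 and 43 counts in Myf5Cre-Pcyt2 muscle, against 55, 44 and 44 counts in control muscle. In CPM this was 1.66, 1.40 and 1.99 in Myf5Cre-Pcyt2 muscle, against 2.91, 2.55 and 2.55 in control muscle. The groups did not overlap in CPM. The log2 fold change of −0.67 (SE 0.21, 95% interval −1.14 to −0.20) lay just outside the threshold (adjusted p = 0.0522). It passed with limma-voom (0.0484) and when genes had to reach 1 CPM in 3 libraries (0.0488), and over all alternatives the adjusted p lay within a range of 0.0484 to 0.189. With each of these settings 4 of the 10 genes passed, 3 lower and 1 higher.
Hmox1, the inducible enzyme that splits heme into biliverdin, carbon monoxide and iron (ENSMUSG00000005413, chr8:75093621-75100589), had 14.1, 15.3 and 16.6 CPM in Myf5Cre-Pcyt2 muscle, against 11.1, 10.2 and 10.4 CPM in control muscle. All Myf5Cre-Pcyt2 libraries lay above all control libraries, and the control libraries were close together. The means were 15.4 ± 1.27 CPM in Myf5Cre-Pcyt2 muscle and 10.6 ± 0.506 CPM in control muscle, which is 0.54 in log2 units (SE 0.11, adjusted p = 0.00887). It was called under all 13 alternatives, with adjusted p from 0.000553 to 0.0445. Nqo1 and Hmox1 thus had log2 fold changes of opposite sign.

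Hmox1 is abundant in macrophages that clear red cells, so markers of these cells are given beside it. Summed over 8 macrophage markers, levels were 179, 206 and 206 CPM in Myf5Cre-Pcyt2 muscle, against 157, 172 and 190 CPM in control muscle, with overlapping groups. Of the 8, 0 passed in either direction with edgeR, and 3 (Csf1r, Mrc1 and Cd163) were higher at an unadjusted p under 0.05. The 7 erythroid markers summed to 353, 262 and 360 CPM in Myf5Cre-Pcyt2 muscle, against 268, 225 and 333 CPM in control muscle. Of 6 erythroid markers tested, 1 rose, the erythroid heme synthesis gene Alas2 at 0.41 (SE 0.12, adjusted p = 0.0331). It missed the threshold without Myf5Cre-Pcyt2 replicate 1 (0.0736), Myf5Cre-Pcyt2 replicate 3 (0.131), control replicate 1 (0.0563) or control replicate 2 (0.0979), over a range of 0.011 to 0.131. The 6 neutrophil markers were at or near 0, with sums of 0.481 to 1.62 CPM in Myf5Cre-Pcyt2 muscle and 0.212 to 0.695 CPM in control muscle. Fibroblast markers summed to 11520 to 13130 CPM in Myf5Cre-Pcyt2 muscle and 8372 to 10900 CPM in control muscle. These sums did not overlap between the groups, and 1 of 5 markers rose (Pdgfra). Most of each fibroblast sum was Col1a1 and Col3a1. Taken singly, Pdgfra and Col3a1 did not overlap between the groups. Col1a1, Dcn and Lum did overlap, with log2 fold changes of 0.36, 0.02 and 0.17. Endothelial markers summed to 685 to 784 CPM in Myf5Cre-Pcyt2 muscle and 661 to 834 CPM in control muscle, and 1 of 5 fell (Esam). Of 4 Schwann cell markers 3 rose, with sums of 400 to 561 CPM in Myf5Cre-Pcyt2 muscle and 271 to 328 CPM in control muscle. The part of these cells in the rise of Hmox1 was not tested.

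The levels of the members can be compared with each other only per length of transcript. Per kilobase of the principal coding transcript, Sod1 was the most abundant, at 163 ± 5.79 CPM per kilobase in Myf5Cre-Pcyt2 muscle and 158 ± 7.77 in control muscle. On the same scale Prdx3 followed at 90.3 ± 15.1 in Myf5Cre-Pcyt2 muscle and 132 ± 12.5 in control muscle. Cat stood at 46.2 ± 2.12 in Myf5Cre-Pcyt2 muscle and 54.3 ± 4.81 in control muscle, and Sod2 at 32.8 ± 3.02 in Myf5Cre-Pcyt2 muscle and 48.2 ± 3.04 in control muscle. Gpx4 stood at 24.6 ± 2.14 in Myf5Cre-Pcyt2 muscle and 27.8 ± 4.39 in control muscle, and Hmox1 at 9.78 ± 0.809 in Myf5Cre-Pcyt2 muscle and 6.72 ± 0.323 in control muscle. Gclm, Gclc, Nqo1 and Slc7a11 followed in that order, and Slc7a11 had 0.0655 ± 0.0217 in Myf5Cre-Pcyt2 muscle and 0.063 ± 0.0551 in control muscle (SD, n = 3 each). The order was the same in both groups. In control muscle the ranges of Cat and Sod2 overlapped, and no other neighbours overlapped in either group. Divided by the length of all annotated exons, an alternative added after the data were seen, Sod1 stood at 25.5 CPM per kilobase in control muscle and at rank 4, because its annotation holds 3970 bases of exons but a principal transcript of 641. Bowtie2, which the submitters' processing notes name without a role, does not split reads over introns. Whether it aligned the counted reads is not stated. If it did, levels of genes with short exons are uncertain on both scales.

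A ratio of 2 genes within a library does not depend on the scaling between libraries. The ratio of Sod2 to Sod1 counts was 1.93, 1.63 and 1.95 in Myf5Cre-Pcyt2 muscle, against 2.55, 3.16 and 2.70 in control muscle, a log2 difference of −0.61. The groups did not overlap, and the exact permutation test (two-sided) gave p = 0.1, the smallest p possible with 3 against 3 libraries (0.133 adjusted over 4 ratios). The ratio of Gclc to Gclm counts was 0.532, 0.445 and 0.438 in Myf5Cre-Pcyt2 muscle, against 0.446, 0.407 and 0.436 in control muscle, with overlapping groups (log2 difference 0.13, exact permutation p = 0.3).
Sod2 and Prdx3 were also set against the citrate synthase gene Cs, 1 of 8 genes taken as a reference for mitochondria. The ratio of Sod2 to Cs counts was 0.224, 0.213 and 0.227 in Myf5Cre-Pcyt2 muscle, against 0.253, 0.249 and 0.256 in control muscle, a log2 difference of −0.19 with groups that did not overlap (exact permutation p = 0.1, 0.133 adjusted). The ratio of Prdx3 to Cs counts was 0.163, 0.134 and 0.164 in Myf5Cre-Pcyt2 muscle, against 0.165, 0.164 and 0.194 in control muscle, a log2 difference of −0.19 (exact permutation p = 0.1, 0.133 adjusted). These groups were separated only by the gap between 0.1638 and 0.1641, and without Myf5Cre-Pcyt2 replicate 2 the difference was −0.09 (exact permutation p = 0.5) and without control replicate 3 it was −0.11 (p = 0.5, exact). Cs itself fell by 0.37 log2 units (SE 0.11, adjusted p = 0.0422) but missed the threshold without Myf5Cre-Pcyt2 replicate 1 (0.0524), Myf5Cre-Pcyt2 replicate 2 (0.154), Myf5Cre-Pcyt2 replicate 3 (0.146), control replicate 2 (0.104) or control replicate 3 (0.0614), over a range of 0.00145 to 0.204. Of the 8 mitochondrial reference genes, 1 fell (Cs), 0 rose and 7 did not pass with edgeR, and the median was −0.12. Cs had the lowest log2 fold change of the 8, and the other 7 lay between −0.32 (Vdac1) and 0.05 (Tomm20). Ratios to those 7 were not taken, so the ratios to Cs do not stand for mitochondrial content in general. At an unadjusted p under 0.05, 0 of the 8 were higher.

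**Figure D4:**
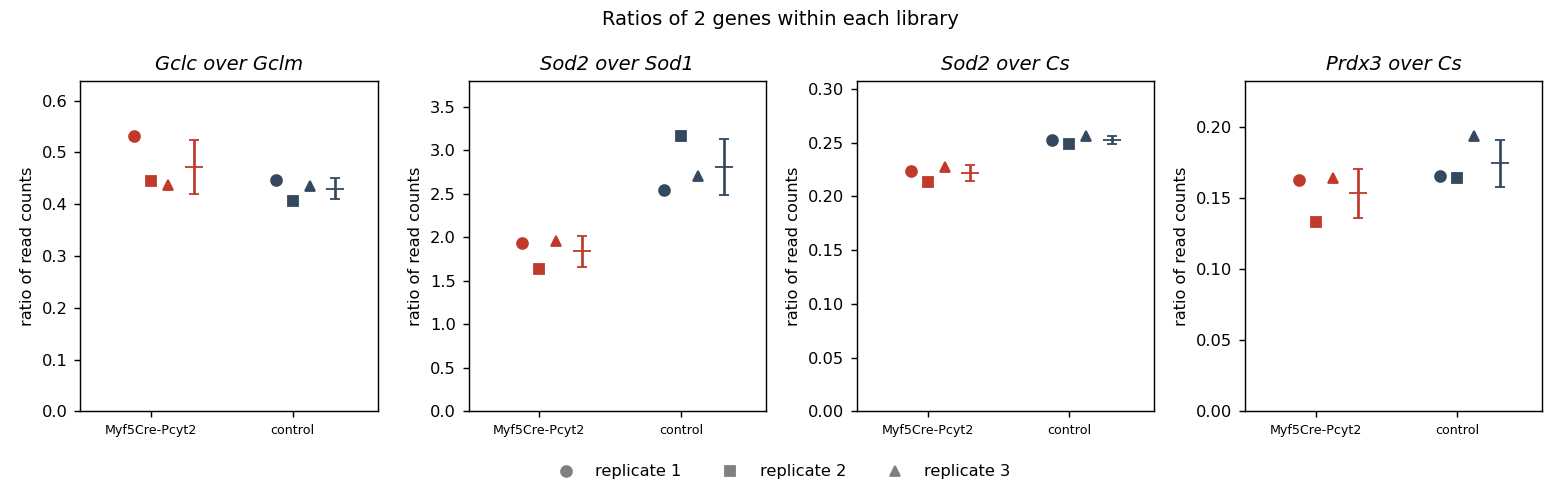
Ratio of the read counts of 2 genes within each library (vertical axes, linear from 0), with Myf5Cre-Pcyt2 left of control, symbols for replicates and mean ± SD (n = 3 per group). Sod2 over Sod1 and Sod2 over Cs lie apart between the groups, Prdx3 over Cs is separated by a narrow gap, and Gclc over Gclm overlaps.

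By the root mean square difference of log2 CPM, each centred on its mean over the 6 libraries, the genes most like Sod2 among 12259 named coding genes were Adipor1, Mus81 and Selenow, with differences of 0.03 each, where the median gene differed by 0.33. Adipor1 had 205 ± 17.6 CPM in Myf5Cre-Pcyt2 muscle and 291 ± 19.4 CPM in control muscle. Among the genes most like Hmox1 were Runx1t1 and Col8a2, with differences of 0.04 each and a median of 0.32 over all candidates. Runx1t1 had 9.86 ± 0.871 CPM in Myf5Cre-Pcyt2 muscle and 6.80 ± 0.542 CPM in control muscle. These are descriptions of 6 libraries in 2 groups.

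Around the 10 genes, 8 lists hold 161 other genes of the same systems, each counted once, of which 152 were tested. Of these, 39 fell, 5 rose and 108 did not pass, or 25.7% lower and 3.29% higher against 9.59% and 9.02% of all tested genes. Their median was −0.17 on the log2 scale, against 0.00 for all tested genes. The lists were chosen with earlier results of these data known, and no test sets these shares apart from those of all tested genes. The 39 and 5 became 11 and 3 on leaving out Myf5Cre-Pcyt2 replicate 2, 17 and 2 on leaving out replicate 3 of that group, 24 and 2 without control replicate 2, and 39 and 9 without control replicate 1. The 5 became 3 when Myf5Cre-Pcyt2 replicate 1 was left out. With library size alone as the scaling 12 fell and 23 rose, and their median was 0.04 where that of all tested genes was 0.21. Some genes stand in more than 1 list. The summed muscle fibre markers given above, mostly Myh4 and Acta1, were also lower, though Ttn was not. The part of muscle fibre RNA was not tested.

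**Figure D5:**
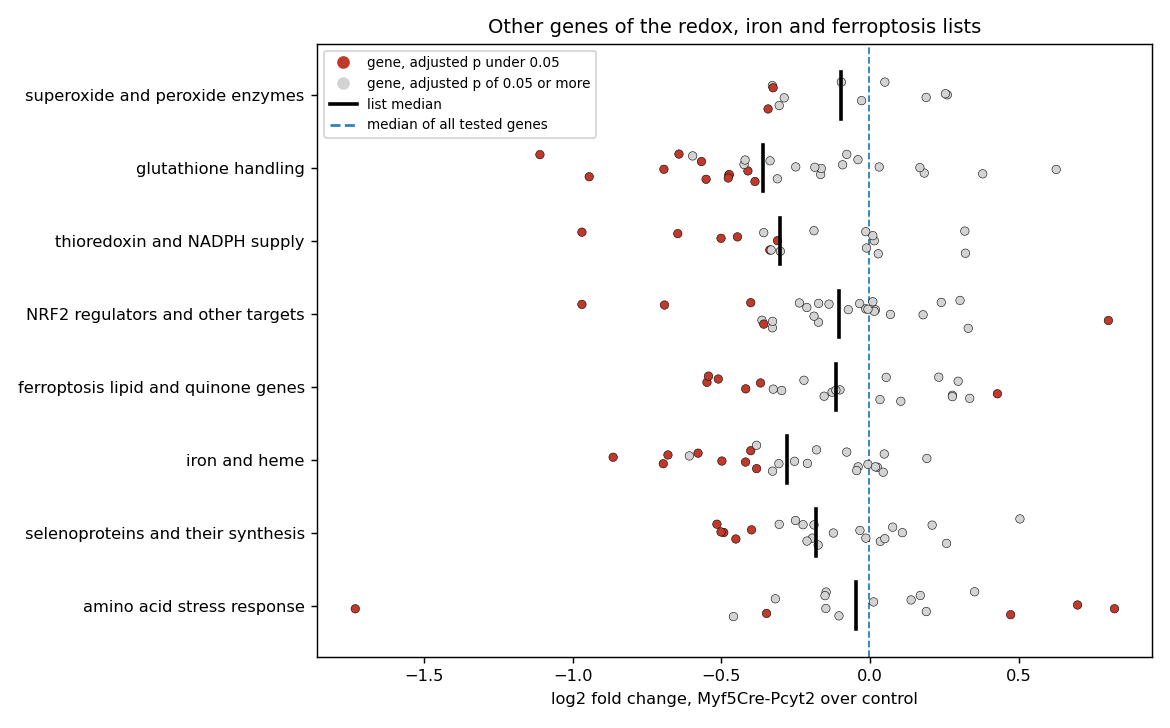
Log2 fold change, Myf5Cre-Pcyt2 over control (horizontal axis), of each tested gene of 8 lists (vertical axis, positions within a list are jittered); red points passed at an adjusted p under 0.05, black bars are list medians and the dashed line is the median of all tested genes. All 8 list medians lie below it with TMM scaling, from −0.05 to −0.36.

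Of 11 tested superoxide and peroxide enzymes outside the 10 genes, 2 fell, 0 rose and 9 did not pass (edgeR), with a median of −0.10. The share that passed, 18.2%, was near the 18.6% of all tested genes. Prdx5, a peroxiredoxin of mitochondria, peroxisomes and cytosol, had 109, 96.5 and 103 CPM in Myf5Cre-Pcyt2 muscle, against 132, 125 and 134 CPM in control muscle. It fell by 0.34 log2 units (SE 0.08, adjusted p = 0.0204). It missed the threshold without Myf5Cre-Pcyt2 replicate 2 (0.0908) or Myf5Cre-Pcyt2 replicate 3 (0.0738). The same held with library size alone (0.321) or the replicate block (0.0591), over a range of 0.00296 to 0.321. Prdx6, a peroxiredoxin that also reduces phospholipid hydroperoxides, fell by 0.33 log2 units (SE 0.09, adjusted p = 0.0335). It missed the threshold without Myf5Cre-Pcyt2 replicate 2 (0.137), Myf5Cre-Pcyt2 replicate 3 (0.0771), control replicate 1 (0.0585), control replicate 2 (0.0558) or control replicate 3 (0.0756). The same held with library size alone (0.421) or the replicate block (0.0652), over a range of 0.0175 to 0.421. The 2 lower genes became 0 without Myf5Cre-Pcyt2 replicate 2 or 3, 1 without control replicate 2 or 3, and 5 with DESeq2, and 1 gene rose without control replicate 1 or 3. Scaled by library size alone, 2 rose and 0 fell. In this list 1 gene was higher at an unadjusted p under 0.05, and 0 were higher with DESeq2 or limma-voom.

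Of 28 tested genes of glutathione handling, 10 fell, 0 rose and 18 did not pass (edgeR), with a median of −0.36. Thus 35.7% of the list passed, against 18.6% of all tested genes. The list had 1 gene higher at an unadjusted p under 0.05 and 0 with DESeq2 or limma-voom, and with library size alone 5 fell and 2 rose. Gstk1, a glutathione transferase of mitochondria and peroxisomes, had 9.61, 6.86 and 9.47 CPM in Myf5Cre-Pcyt2 muscle, against 15.4, 22.6 and 18.0 CPM in control muscle. Its groups did not overlap, and its log2 fold change was −1.11 (SE 0.17, adjusted p = 0.00378). Chac2, which breaks down glutathione in the cytosol, fell with a log2 change of −0.94 (SE 0.14, adjusted p = 0.0039). Mgst3, a microsomal glutathione transferase, fell with −0.69 (SE 0.11, adjusted p = 0.00421). These 3 genes passed under all 13 alternatives, with adjusted p up to 0.0202, 0.0251 and 0.0285. The 10 lower genes of the list became 4 without Myf5Cre-Pcyt2 replicate 2.

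The thioredoxin system recharges Prdx3. Of 17 tested genes of thioredoxin and NADPH supply, 6 fell, 0 rose and 11 did not pass (edgeR), with a median of −0.30. As a share, 35.3% passed, against 18.6% of all tested genes. Txn2, the mitochondrial thioredoxin that reduces Prdx3, had 177, 157 and 155 CPM in Myf5Cre-Pcyt2 muscle, against 198, 233 and 236 CPM in control muscle. The change was −0.45 in log2 units (SE 0.10, adjusted p = 0.0147), and it missed the threshold without Myf5Cre-Pcyt2 replicate 2 (0.0658) or Myf5Cre-Pcyt2 replicate 3 (0.0675) or with library size alone (0.0951), over a range of 0.000309 to 0.0951. Txnrd2, the mitochondrial thioredoxin reductase, was chosen after its values were seen and fell by 0.50 log2 units (SE 0.14, adjusted p = 0.0297). It missed the threshold without Myf5Cre-Pcyt2 replicate 2 (0.117), Myf5Cre-Pcyt2 replicate 3 (0.11) or control replicate 2 (0.104), over a range of 0.000775 to 0.117.
Msrb2, a mitochondrial methionine sulfoxide reductase, had −0.65 (SE 0.16, adjusted p = 0.0211) and missed the threshold without Myf5Cre-Pcyt2 replicate 1 (0.057), Myf5Cre-Pcyt2 replicate 2 (0.0605), Myf5Cre-Pcyt2 replicate 3 (0.0621) or control replicate 2 (0.0867), over a range of 0.00133 to 0.0873. Taldo1, the transaldolase of the pentose phosphate pathway, had −0.34 (SE 0.08, adjusted p = 0.0173). Taldo1 missed the threshold without Myf5Cre-Pcyt2 replicate 2 (0.0763) or Myf5Cre-Pcyt2 replicate 3 (0.0756). The same held with library size alone (0.343) or the replicate block (0.0569), over a range of 0.00409 to 0.343. The 6 lower genes numbered 0 and 1 without Myf5Cre-Pcyt2 replicates 2 and 3, and 4 after dropping Myf5Cre-Pcyt2 replicate 1, control replicate 2 or control replicate 3, and 1 gene rose without control replicate 3. Scaling by library size alone gave 0 lower and 2 higher. At an unadjusted p under 0.05, 1 gene was higher, the mitochondrial isocitrate dehydrogenase gene Idh2, which supplies NADPH. It was named after its values were seen, and had 277 ± 18.8 CPM in Myf5Cre-Pcyt2 muscle and 221 ± 31.5 CPM in control muscle (SD, n = 3 each), with groups that did not overlap and a log2 fold change of 0.32 (edgeR adjusted p = 0.0747). In this list 1 gene was higher with DESeq2 and 0 with limma-voom.

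Of 26 tested regulators and other targets of NRF2, 4 fell, 1 rose and 21 did not pass, with a median of −0.11. The share that passed, 19.2%, was near the 18.6% of all tested genes. Nfe2l2 itself, chosen after its values were seen, had 34.4, 36.4 and 37.0 CPM in Myf5Cre-Pcyt2 muscle, against 37.6, 38.3 and 34.5 CPM in control muscle. Its groups overlapped, with a log2 fold change of −0.03 (95% interval −0.22 to 0.15, adjusted p = 0.802), or 0.18 with library size alone. The rise was in Bach2, a repressor that binds the same class of DNA elements, with 11.96, 15.4 and 12.6 CPM in Myf5Cre-Pcyt2 muscle, against 7.09, 8.35 and 7.47 CPM in control muscle (log2 fold change 0.80, SE 0.13, adjusted p = 0.00473). It passed under all 13 alternatives, up to 0.0295. Abcc4, an exporter of conjugates, had −0.69 (SE 0.16, adjusted p = 0.0152) and missed the threshold without Myf5Cre-Pcyt2 replicate 2 (0.0698) or Myf5Cre-Pcyt2 replicate 3 (0.0526), over a range of 1.9e-06 to 0.0698. Cbr1, a carbonyl reductase, had −0.36 (SE 0.10, adjusted p = 0.0292) and missed the threshold without Myf5Cre-Pcyt2 replicate 1 (0.0697), Myf5Cre-Pcyt2 replicate 2 (0.0935), Myf5Cre-Pcyt2 replicate 3 (0.0524), control replicate 2 (0.0756) or control replicate 3 (0.0605), over a range of 0.0277 to 0.408. The other members that fell were Me1, described above, and the ferritin gene Fth1, described with the iron genes. The 4 lower genes became 0 and 1 without Myf5Cre-Pcyt2 replicates 2 and 3, and 2 and 1 without control replicates 2 and 3, and 2 genes were higher without control replicate 1. With library size alone 1 was lower and 4 higher.

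Of 21 tested genes of ferroptosis that act on lipids and quinones, 5 fell, 1 rose and 15 did not pass, with a median of −0.11. Thus 28.6% of the list passed, against 18.6% of all tested genes. Pla2g6, a phospholipase that removes oxidised acyl chains, had 13.1, 11.4 and 12.2 CPM in Myf5Cre-Pcyt2 muscle, against 19.5, 17.6 and 16.5 CPM in control muscle. It fell by 0.55 log2 units (SE 0.11, adjusted p = 0.008), and it did not pass with library size alone (−0.34, adjusted p = 0.0648), over a range of 0.000179 to 0.0648. Coq2 and Pdss2, which build coenzyme Q, had −0.42 (SE 0.09, adjusted p = 0.0148) and −0.54 (SE 0.14, adjusted p = 0.0214). Coq2 missed the threshold without Myf5Cre-Pcyt2 replicate 2 (0.0745) or Myf5Cre-Pcyt2 replicate 3 (0.0568), over a range of 0.00223 to 0.17, and Pdss2 missed the threshold without Myf5Cre-Pcyt2 replicate 2 (0.0979), control replicate 2 (0.0787) or control replicate 3 (0.0532), over a range of 3.4e-05 to 0.0979.
Acsl4, the acyl-CoA synthetase that loads polyunsaturated fatty acids for phospholipids and favours ferroptosis, was chosen after its values were seen. It had 76.0, 51.4 and 66.6 CPM in Myf5Cre-Pcyt2 muscle, against 90.7, 107 and 78.0 CPM in control muscle, and its groups did not overlap. It fell by 0.51 log2 units (SE 0.15, adjusted p = 0.0378), and it missed the threshold without Myf5Cre-Pcyt2 replicate 2 (0.138), Myf5Cre-Pcyt2 replicate 3 (0.0916), control replicate 1 (0.0558) or control replicate 2 (0.133), over a range of 2.97e-05 to 0.138. The other gene that fell was Dhcr7, which reduces a sterol precursor that traps lipid radicals, at −0.37 (SE 0.11, adjusted p = 0.0366), named after its values were seen. The 5 lower genes became 1 and 2 without Myf5Cre-Pcyt2 replicates 2 and 3, and 3 without control replicate 2 or 3. The 1 higher gene became 0 without Myf5Cre-Pcyt2 replicate 1 or 3 or control replicate 2, 2 without control replicate 1, and 0 with DESeq2. Under library size alone, 0 fell and 5 rose.

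Iron drives lipid peroxidation, and heme is the substrate of Hmox1. Of 24 tested iron and heme genes, 8 fell, 0 rose and 16 did not pass (edgeR), with a median of −0.28. As a share, 33.3% passed, against 18.6% of all tested genes. At an unadjusted p under 0.05, 0 were higher, and 0 were higher with DESeq2 or limma-voom. Cisd1, an iron-sulfur protein of the outer mitochondrial membrane, had 51.1, 41.8 and 45.1 CPM in Myf5Cre-Pcyt2 muscle, against 71.4, 98.2 and 81.6 CPM in control muscle. It fell by 0.86 log2 units (SE 0.12, adjusted p = 0.00307). Alas1, the entry enzyme of heme synthesis outside red cells, fell with −0.58 (SE 0.09, adjusted p = 0.00414), and Fech, the ferrochelatase that completes heme, with −0.70 (SE 0.11, adjusted p = 0.00459). Cisd1, Alas1 and Fech passed under all 13 alternatives, up to 0.0224, 0.0276 and 0.0276.
Fth1, the heavy chain of the iron store ferritin, was chosen after its values were seen. It had 1466, 1261 and 1308 CPM in Myf5Cre-Pcyt2 muscle, against 1674, 1877 and 1778 CPM in control muscle. The groups did not overlap, and its log2 fold change was −0.40 (SE 0.12, adjusted p = 0.0376). It missed the threshold without Myf5Cre-Pcyt2 replicate 2 (0.143), Myf5Cre-Pcyt2 replicate 3 (0.153), control replicate 2 (0.0839) or control replicate 3 (0.0677), over a range of 0.000365 to 0.163. The 8 lower genes became 5 without Myf5Cre-Pcyt2 replicate 2 or 3 or control replicate 2 or 3. Scaled by library size alone, 4 fell and 1 rose.

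Gpx4 is a selenoprotein, and it shares the machinery that inserts selenocysteine with the other members of that class. Of 22 tested genes of selenoproteins and their synthesis, 5 fell, 0 rose and 17 did not pass (edgeR), with a median of −0.18. In all 22.7% of the list passed, against 18.6% of all tested genes. The list had 2 genes higher at an unadjusted p under 0.05 and 0 with DESeq2 or limma-voom. Selenow, a small selenoprotein abundant in muscle, had 397, 338 and 360 CPM in Myf5Cre-Pcyt2 muscle, against 494, 563 and 508 CPM in control muscle. Its log2 fold change was −0.52 (SE 0.10, adjusted p = 0.0094), and it passed under all 13 alternatives, up to 0.0495. Msrb1, a selenium-containing methionine sulfoxide reductase, had −0.49 (SE 0.11, adjusted p = 0.0128) and missed the threshold without Myf5Cre-Pcyt2 replicate 2 (0.0615) or Myf5Cre-Pcyt2 replicate 3 (0.0531) or with library size alone (0.0568), over a range of 6.6e-05 to 0.0615. Sephs2, which makes the selenium donor for selenocysteine, had −0.45 (SE 0.10, adjusted p = 0.0128) and missed the threshold without Myf5Cre-Pcyt2 replicate 2 (0.0662), over a range of 0.000843 to 0.148. The others that fell were Txnrd2, described above, and Selenot, a selenoprotein of the endoplasmic reticulum, at −0.40 (SE 0.11, adjusted p = 0.0298), named after its values were seen. The 5 lower genes became 1 and 2 without Myf5Cre-Pcyt2 replicates 2 and 3, and 3 without control replicate 2, and with library size alone 1 fell and 2 rose.

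Slc7a11 is also a target of the amino acid stress response driven by the transcription factor ATF4. Of 16 tested genes of that response and of p53, 2 fell, 3 rose and 11 did not pass, with a median of −0.05. In all 31.2% of this list passed, against 18.6% of all tested genes. Atf4 itself, named after its values were seen, had a log2 fold change of −0.10 (edgeR adjusted p = 0.394). Also named so, Ddit3 (−0.15), Atf3 (−0.15), Chac1 (−0.46), Sesn2 (−0.32), Asns (0.19) and Trib3 (0.17) did not pass. Cdkn1a, the cell cycle inhibitor induced by p53, had 72.9, 76.0 and 67.6 CPM in Myf5Cre-Pcyt2 muscle, against 48.7, 37.1 and 47.6 CPM in control muscle (log2 fold change 0.70, SE 0.11, adjusted p = 0.00414). It passed under all 13 alternatives, up to 0.0265. Psat1 and Phgdh, enzymes of serine synthesis chosen after their values were seen, had 0.47 (SE 0.14, adjusted p = 0.0436) and 0.82 (SE 0.24, adjusted p = 0.0375). Psat1 missed the threshold without Myf5Cre-Pcyt2 replicate 1 (0.106), Myf5Cre-Pcyt2 replicate 2 (0.133), Myf5Cre-Pcyt2 replicate 3 (0.0703) or control replicate 2 (0.0918), over a range of 0.000819 to 0.133, and Phgdh missed the threshold without Myf5Cre-Pcyt2 replicate 1 (0.066), Myf5Cre-Pcyt2 replicate 2 (0.0961), Myf5Cre-Pcyt2 replicate 3 (0.122), control replicate 2 (0.12) or control replicate 3 (0.0838), over a range of 0.0155 to 0.122. Cth, the enzyme that makes cysteine from cystathionine and so an alternative to import by Slc7a11, was at 0.267, 0.349 and 0.277 CPM in Myf5Cre-Pcyt2 muscle, against 1.06, 1.33 and 0.637 CPM in control muscle. It fell by 1.73 log2 units (SE 0.39, adjusted p = 0.0141), and it missed the threshold without Myf5Cre-Pcyt2 replicate 2 (0.0531), Myf5Cre-Pcyt2 replicate 3 (0.0529) or control replicate 2 (0.0599), over a range of 0.00132 to 0.0599. Shmt2, the mitochondrial serine hydroxymethyltransferase, had −0.35 (SE 0.09, adjusted p = 0.0288) and missed the threshold without Myf5Cre-Pcyt2 replicate 2 (0.116), Myf5Cre-Pcyt2 replicate 3 (0.12), control replicate 2 (0.0979) or control replicate 3 (0.0505), over a range of 0.0154 to 0.315. The 3 higher genes became 1 without Myf5Cre-Pcyt2 replicate 2 or 3 or control replicate 2. The 2 lower genes became 0 without Myf5Cre-Pcyt2 replicate 2 or 3 or control replicate 2, and 1 without control replicate 3. With library size alone 1 fell and 5 rose.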

How the data were processed

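RNA from quadriceps (1.3 µg per library, per the labels) was sequenced in 6 libraries. The authors deposited raw counts per Ensembl gene. Per the submitters' processing notes, the build was GRCm38 and the tools were Subread 1.6.2 (featureCounts), Bowtie2 2.3.4.1 and Trim Galore 0.5.0, with no role or order. No source used here gives the annotation release, the strand setting or the treatment of reads that map to several places, so overlapping genes and genes with pseudogenes have uncertain counts.

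Of 54532 genes, 54495 matched GENCODE M21. Genes passing edgeR's filterByExpr were scaled with TMM and tested with edgeR 4.0.16 (quasi-likelihood, two-sided, R 4.3.3). Alternatives used DESeq2 1.42.0, limma 3.58.1, other scalings and filters, a replicate block, and each library left out. Tables and figures used Python 3.11.15, pandas 2.3.3, numpy 2.4.6 and matplotlib 3.10.9. Within-library ratios used an exact permutation test. Counts were simulated for this comparison with 200 changed genes, and 14478 genes were tested. There, 47.8% of genes changed 1.5-fold, 81.8% changed 2-fold and 100% changed 4-fold were recovered, and 12 of 160 calls were false. Far fewer genes were changed than the 2739 that passed in the data, so these shares need not hold for the data. SE and 95% intervals come from the fit. They reflect no more than counting error and the variation among these 6 libraries.

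The members and lists were chosen with earlier results of these data known. Text names all 10 members, Pcyt2, in each list the 3 genes with the smallest p among those that passed (otherwise the 1 with the smallest p), and for Sod2 and Hmox1 (the members with the smallest p) the 3 most similar coding genes with at least 1 CPM, and others are said to be chosen after their values were seen. Marker genes and Cs were named to describe other cells and mitochondria. A few genes that the rule or the counts would name are not reported here.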

Additional observations from a re-analysis of the deposited data

How the results depend on the processing

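Sod1, Sod2, Gclc and Hmox1 kept their direction and their side of the threshold under all 13 alternatives, and Gpx4, Gclm and Slc7a11 did not pass under any. With library size alone as the scaling, 1 member was lower, Gpx4 stood at 0.0206, Gclm at 0.20 and Nfe2l2 at 0.18, and of the other listed genes 12 were lower and 23 higher. This setting shifted the all-gene median by 0.21 log2 units. Leaving out each library gave 2 to 4 members changed, 1 to 3 lower and 1 higher in each case, and 14 to 48 listed genes changed, 11 to 39 lower and 2 to 9 higher. Gclm then ranged from −0.0599 to 0.0509 and Slc7a11 from −0.32 to 1.06. The cause of these shifts was not tested.

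Replicate numbers are shared between the groups, but no label gives them a common litter or day. Deviations of libraries with the same number correlated at −0.11, −0.17 and 0.02 for replicates 1, 2 and 3, and not every library was closest to its own number. These values show no pairing, but deviations from the means of groups of 3 cannot exclude one. With the replicate block, 3 members passed (2 lower and 1 higher), and 29 listed genes passed, with 26 lower and 3 higher. The ratio differences were by construction the same with the block (0.13, −0.61, −0.19 and −0.19), and the smallest p of the sign-flip test is 0.25. Slc7a11 had too few counts for the filter of at least 1 CPM in 3 libraries. No pair of libraries within a group agreed within sampling noise (chi-square per degree of freedom 11.99 to 34.1). Counts were fewest for Slc7a11 and Nqo1 among the 10 members, at 4 to 22 and 31 to 55 per library.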

Other observations

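Nnt and Ftl1, genes of the lists, were listed at low levels in all 6 libraries. Nnt is the mitochondrial transhydrogenase that supplies NADPH for glutathione and thioredoxin. It had 7, 18 and 7 counts in Myf5Cre-Pcyt2 muscle, against 5, 3 and 7 counts in control muscle, and another Ensembl entry of the same symbol was at 0 in all libraries. Ftl1, the light chain of ferritin, had 14.9, 12.8 and 4.99 CPM in Myf5Cre-Pcyt2 muscle, against 13.2, 6.90 and 12.6 CPM in control muscle. Fth1, the heavy chain, lay between 1261 and 1466 CPM in Myf5Cre-Pcyt2 muscle and between 1674 and 1877 CPM in control muscle. How reads that map to several places were counted is stated by no source used here.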
